A study of Mus musculus with 12 samples.

Results

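Splicing factors are the proteins that recognise exons and introns in a new transcript and cut the introns out. The genes described here code for SR proteins (Srsf genes), heterogeneous nuclear ribonucleoproteins (Hnrnp genes), proteins of the small nuclear ribonucleoproteins (Snrp genes), LSm proteins, subunits of the SF3A and SF3B complexes and the U2AF heterodimer, together with Rbm39, Rbm25, Tra2a, Tra2b and Khsrp. They were chosen by gene symbol, as protein-coding rows only, and not by any measured value, though earlier results of these data were known. The rule found 68 genes among the 55414 gene IDs of the table, and 65 of them had enough counts to be tested, of 11332 genes tested in all. The families hold 11 SR genes (10 tested), 20 hnRNP genes (20), 12 snRNP genes (11), 8 LSm genes (8), 9 SF3 genes (9), 3 U2AF genes (2) and the 5 others (5). Srsf12 and Snrpn had 0 counts in the 12 libraries together and U2af1l4 had 2, so these 3 were not tested.

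Splicing is carried out by the spliceosome, which assembles on each intron from small nuclear RNAs and their proteins. The U1 particle binds the start of the intron, U2AF and SF3 bring the U2 particle to the branch point near its end, and a ring of Sm or LSm proteins holds each small nuclear RNA. SR proteins mostly bind exons and favour their inclusion, while many hnRNP proteins bind exons or introns and act against it, so that the balance between them sets the choice of splice sites in many tissues and tumours.

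The RNA came from EO771-tdT-LM2 cells. This line of mouse breast cancer cells bears a tdTomato label and is given as wild type, so every value below is from 1 cell line in culture. All 12 cultures were held in glucose-deprived medium with 10 mg/dl glucose and 1% FBS, for 30 minutes before they were plated and for the 24 hours of treatment. The 3 control cultures received 0.1% BSA and 2.5 µg/mL IgG. The next 3 were given GDNF at 0.2 µg/mL and 2.5 µg/mL IgG. Another 3 were given 0.1% BSA and 2.5 µg/mL anti-NCAM1, and the last 3 GDNF and anti-NCAM1 together at the same doses. GDNF is a growth factor of the nervous system, and NCAM1, the antibody's target, is an adhesion protein of the cell surface to which GDNF can bind. The cultures of a group are called triplicates and are not said to be separate experiments, so p-values measure the spread between these cultures, which may be technical.

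The libraries held 5616398 to 8093754 counts each. Levels are given as CPM, counts scaled to a library's TMM-adjusted size. The lower limit of 3 counts (0.371 to 0.534 CPM) and the marker levels that follow here are instead scaled to the unadjusted total. Among epithelial markers Krt8 stood at 465 to 595 CPM and Epcam at 12.3 to 18.3 CPM, while Krt19 was at 0 counts, Krt18 at 0 to 1 and Cdh1 at 0 to 4; of the mesenchymal or fibroblast markers Vim stood at 4866 to 5865 CPM, Col1a1 at 229 to 369, Pdgfra at 214 to 237 and Pdgfrb at 36.2 to 50.1, while Col1a2 and Thy1 were at 0 to 1 counts. Of the leukocyte markers Ptprc, Cd3e, Itgam and Adgre1 no library held more than 1 count each. GDNF replicate 3 stood apart from the other libraries. Its rank correlation across genes with the others was 0.974 to 0.984, against 0.991 to 0.996 among those. Its counts on genes of the mitochondrial genome were 10.2% of the total, against 4.11 to 5.29% elsewhere. Each library's deviation from the mean of the 12 was also fitted on the GC content of the transcripts, and the slope, in log2 units per 10 points of GC, was -0.34 in GDNF replicate 3, -0.16 in GDNF replicate 2, -0.085 and -0.089 in anti-NCAM1 replicates 1 and 3, and 0.054 to 0.12 in the other 8 libraries.

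The splicing-factor genes were abundant. Their median level per length over the 12 libraries was 65.7 CPM per kb of transcript, against 12.4 for all tested genes, and together they held 1.33 to 1.49% of the counts of a library. Within the families the highest level per length was that of Hnrnpa1, a protein that binds splicing silencers, at 805 CPM per kb, and the lowest hnRNP was Hnrnph3 at 8.60. Among SR proteins the order ran from Srsf2, a component of nuclear speckles, at 166 CPM per kb down to Srsf4 at 27.8. In the snRNPs it ran from Snrpe at 149.7 to Snrpa1 at 19.1, in the LSm proteins from Lsm8 at 79.5 to Lsm1 at 7.97, and in SF3 from Sf3b2 at 117 to Sf3b5 at 6.79. U2af1 stood at 123 and U2af2 at 86.0 CPM per kb, and of the 5 other genes Rbm39 was highest at 108 and Tra2b lowest at 50.3. The family medians were 108 CPM per kb for hnRNP, 104 for U2AF, 66.3 for SR, 58.4 for snRNP, 56.2 for the 5 others, 46.5 for SF3 and 42.5 for LSm. These levels depend on 1 annotated transcript length per gene, and those of genes with near-identical pseudogenes, such as Hnrnpa1 and Snrpe, are uncertain where copies share reads.

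The genes also varied little. The coefficient of variation of a member's CPM over the 12 libraries had a median of 9.25%, against 11.8% for all tested genes. Against the 68.6% of tested genes with a mean of at least 16.2 CPM, the level of the lowest member, the gap was smaller, since those genes had a median of 9.46%. The members' transcripts were also poorer in GC than the average, with a median of 45.5% against 50.4%, and shorter, with a median of 2225 bases against 2737.

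**Figure D1:**
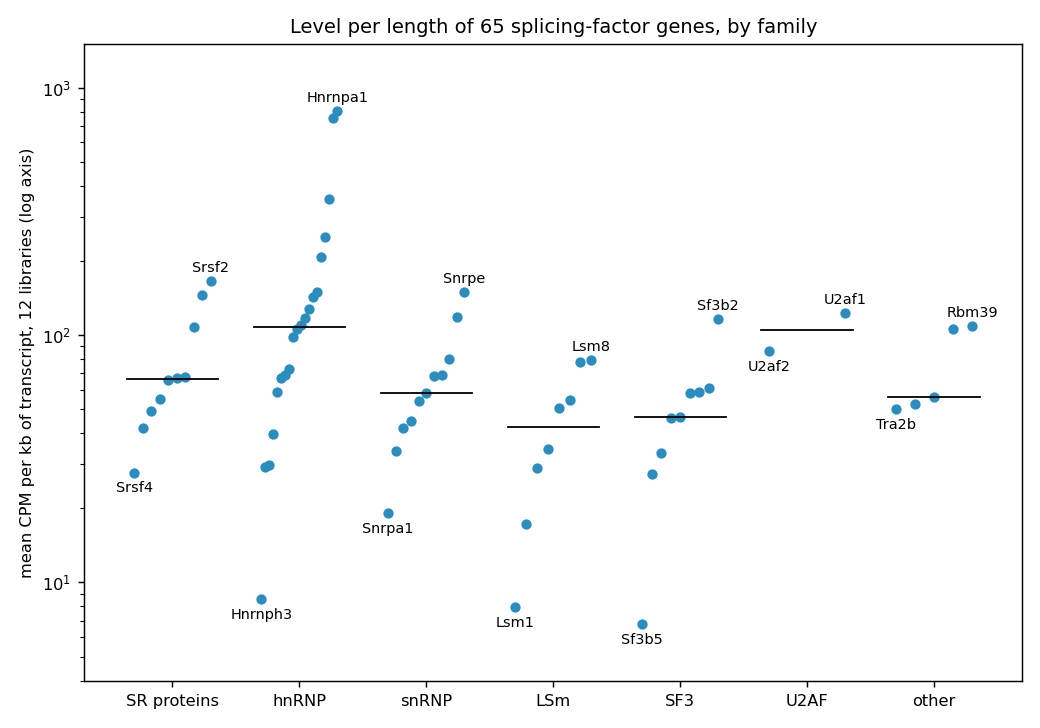
Mean CPM per kb of transcript over the 12 libraries (log axis) for the 65 tested splicing-factor genes, 1 point per gene, grouped by family, with the family median as a bar and the highest and lowest gene named. Hnrnpa1 stands highest at 805 CPM per kb and Sf3b5 lowest at 6.79.

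GDNF was first compared with control, to see how glucose-deprived cells differ when the factor is added. By the labels the groups with GDNF received no BSA, while the control and antibody groups did. GDNF and the lack of BSA therefore cannot be told apart, here, in both treatments against the antibody or control, or in the interaction. With GDNF, 50 of the 65 splicing-factor genes stood above control and 15 below, with a median log2 fold change of 0.13, against 0.0021 and 5701 of 11332 for all tested genes. SR, hnRNP, snRNP and LSm genes were mostly higher, with family medians of 0.13, 0.17, 0.17 and 0.14, while the SF3 genes had a median of 0.041. No gene passed edgeR's quasi-likelihood test with Benjamini-Hochberg adjustment at 0.05. That count was 0 of 65 members, where the share of all tested genes was 0% as well, and the smallest adjusted p over all genes was 0.165. All fold changes below are therefore given as values and not as calls. A change in CPM is relative to the library's other RNA, and in bulk RNA fewer cells expressing a gene and less of its RNA per cell cannot be told apart.

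At an unadjusted p under 0.05, 19 members stood higher with GDNF and 2, Khsrp and Snrpb, lower, where 11.6% of all tested genes stood higher and 8.7% lower. All 3 GDNF libraries lay above all 3 controls in 19 members and below them in 1 member, Khsrp, where 9.89% of all tested genes were separated upwards and 7.76% downwards. DESeq2 passed 31 of all tested genes with 1960 at an unadjusted p under 0.05, and limma-voom passed 0 with 2448 unadjusted. Rbm39 and Khsrp were the members that DESeq2 passed, each with an adjusted p of 0.0491. DESeq2 gave no adjusted p here to Snrpd1, Sf3b6, Snrpb2, Snrpb and Sf3b5, so it did not judge them at 0.05. Genes without an adjusted p could not be among the 31. The DESeq2 log2 fold change of Snrpd1 was 0.49 (SE 0.13). The distance from control was unequal among the replicates: the mean of log2 CPM over the 65 members, less the control mean, was 0.031, 0.11 and 0.12 in GDNF replicates 1 to 3, against -0.015, -0.0040 and 0.019 in the controls. GDNF replicate 1 thus lay just above the highest control, and GDNF replicates 2 and 3 lay farther above it.

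**Figure D2:**
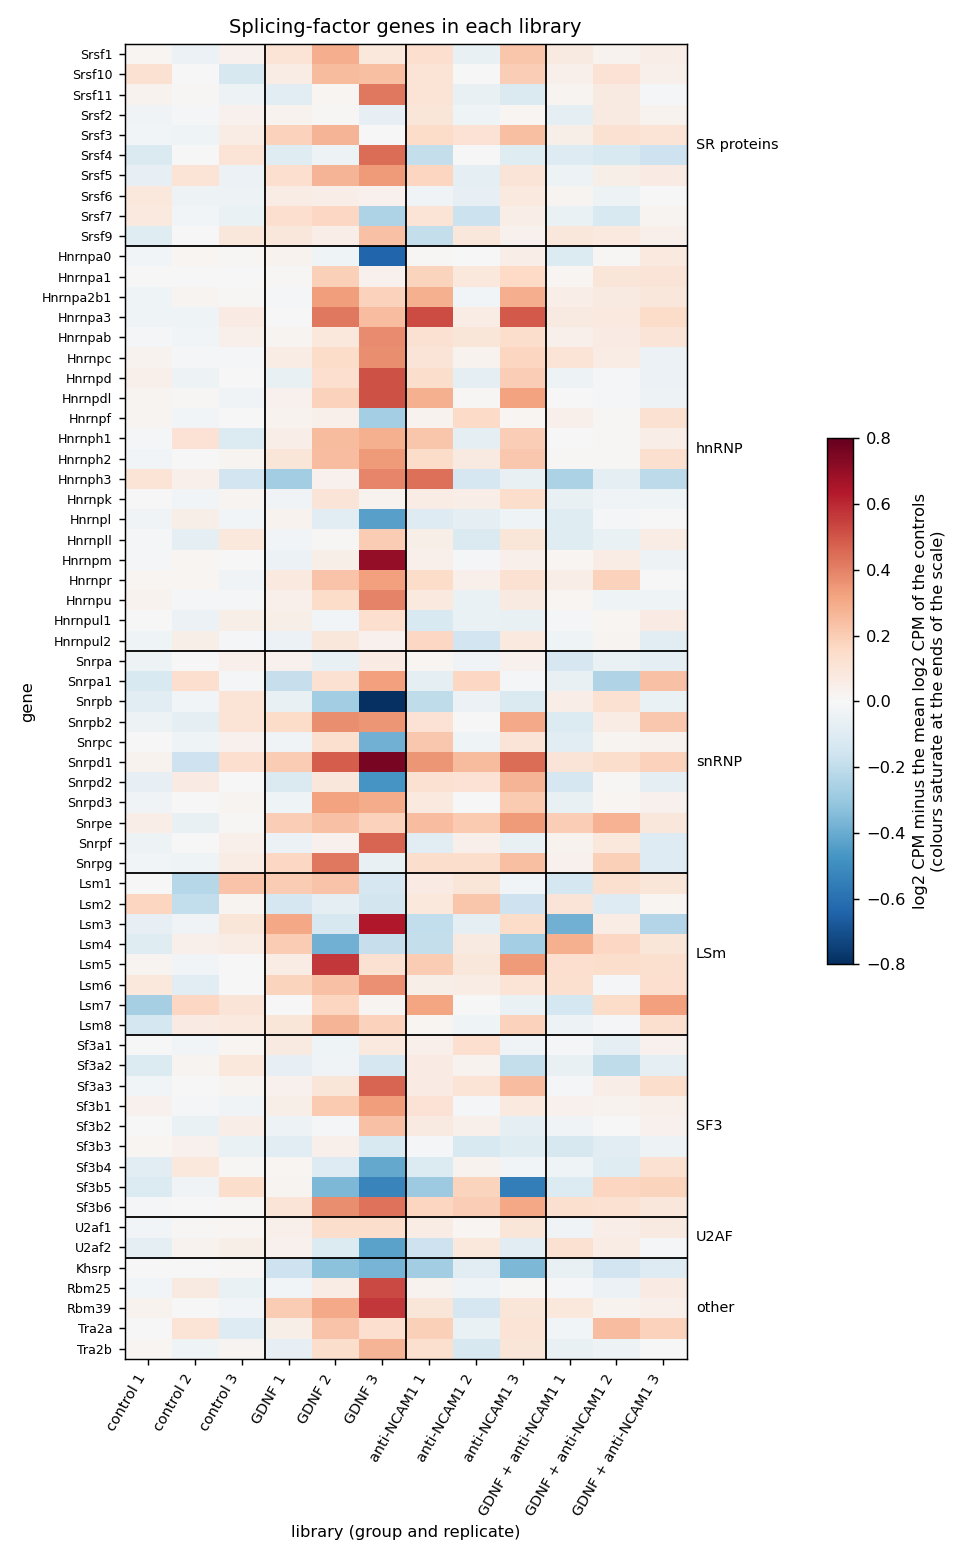
Log2 CPM of each of the 65 tested genes (rows, by family) in each of the 12 libraries (columns, by group), less the mean of the 3 controls; red is above and blue below the controls, and colours saturate at the ends of the scale. GDNF replicate 3 holds the deepest colours, both red, as in Hnrnpm and Lsm3, and blue, as in Snrpb and Hnrnpa0.

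A few members carried the clearest separation from control in this comparison. Snrpd1 codes for SmD1, a protein of the ring that encloses the spliceosomal RNAs. It stood at 85.9, 75.3 and 92.5 CPM in control replicates 1 to 3, 97.0, 118 and 142 with GDNF, 108, 100.2 and 115 with the antibody and 90.6, 93.0 and 95.5 with both. Every GDNF library lay above every control, and the antibody libraries did as well, while the libraries with both overlapped the controls. The log2 fold change with GDNF was 0.50 (SE 0.11, adjusted p = 0.165), and 0.34 without GDNF replicate 3.

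Rbm39 codes for an RNA-binding protein related to U2AF that acts in splice-site choice. Its level was 286, 280.0 and 276 CPM in control replicates 1 to 3, 323, 346 and 416 with GDNF, 300.1, 255 and 299.8 with the antibody and 298, 286 and 289 with both. The GDNF libraries lay above all 9 others, with replicate 3 highest. The log2 fold change was 0.37 (SE 0.088, adjusted p = 0.165), and 0.25 without GDNF replicate 3. Sf3b6 codes for the small SF3B subunit that lies at the branch point. It was nearly constant in the controls, at 48.1, 48.3 and 48.8 CPM in control replicates 1 to 3, 52.0, 62.7 and 65.5 with GDNF, 54.4, 55.4 and 59.9 with the antibody and 52.8, 52.6 and 51.6 with both. All 9 treated libraries lay above every control. The log2 fold change with GDNF was 0.31 (SE 0.091, adjusted p = 0.165).

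Khsrp, which codes for a KH-domain protein that binds intronic enhancers and also AU-rich sequences of messages marked for decay, lay on the other side of control. It stood at 248, 247 and 249.5 CPM in control replicates 1 to 3, 221, 198 and 192 with GDNF, 205, 234 and 194 with the antibody and 239, 223 and 231 with both. All 9 treated libraries lay below the controls, which lay close together, and the GDNF libraries and those with both did not overlap. The log2 fold change with GDNF was -0.29 (SE 0.078, adjusted p = 0.165).

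The promoters of 3 of these genes are shown because they stand for members on either side of control, with Rbm39 and Sf3b6 above it and Khsrp below. They are the 250 bases before the transcript start in RefSeq's annotation of GRCm38.p6, read 5′ to 3′ on the gene's strand, and capitals mark the box CCAAT, the GC-rich box GGGCGG and the ETS core CCGGAA on either strand. The Rbm39 promoter lies at chr2:156180239-156180488 on the minus strand and has 59.2% GC, that of Sf3b6 at chr12:4817358-4817607 on the plus strand with 61.6%, and that of Khsrp at chr17:57031508-57031757 on the minus strand with 67.6%.
Rbm39: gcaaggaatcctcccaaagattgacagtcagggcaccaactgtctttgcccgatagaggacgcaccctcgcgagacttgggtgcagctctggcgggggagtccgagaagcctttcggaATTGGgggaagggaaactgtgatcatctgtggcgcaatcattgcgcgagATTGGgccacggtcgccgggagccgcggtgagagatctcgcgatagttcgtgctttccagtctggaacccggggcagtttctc
Sf3b6: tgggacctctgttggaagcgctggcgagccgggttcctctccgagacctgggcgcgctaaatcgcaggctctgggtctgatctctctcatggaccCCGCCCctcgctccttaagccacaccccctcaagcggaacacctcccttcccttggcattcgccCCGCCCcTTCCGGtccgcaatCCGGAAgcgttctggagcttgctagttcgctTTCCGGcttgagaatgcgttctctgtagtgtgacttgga
Khsrp: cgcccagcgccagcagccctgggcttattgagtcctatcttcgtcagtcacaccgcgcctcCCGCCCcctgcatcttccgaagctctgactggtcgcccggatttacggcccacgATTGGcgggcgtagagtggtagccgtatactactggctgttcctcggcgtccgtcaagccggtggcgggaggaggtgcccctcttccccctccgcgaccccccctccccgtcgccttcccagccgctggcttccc

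The Rbm39 promoter holds 2 copies of the CCAAT box, the letters bound by NF-Y, both on the opposite strand and written as ATTGG. That of Sf3b6 holds 3 of CCGGAA, the core of many ETS sites, and 2 of GGGCGG, an Sp1 box, and that of Khsrp holds 1 CCAAT and 1 GGGCGG. RefSeq promoters were matched for 56 of the 65 members and for 8656 of all tested genes. CCAAT was found in 26 of the 56 (46.4%, against 37.5% of all), GGGCGG in 39 of the 56 (69.6%, against 61.9% of all) and CCGGAA in 23 of the 56 (41.1%, against 2164 of the 8656). The E-box CACGTG was found in 3 of the 56 (5.36%, against 8.92% of all) and TATAAA in 6 of the 56 (10.7%, against 5.80% of all). All motifs were searched on both strands, and a match says only that these letters are present. The median GC content of the promoters was 60.6% in members and 60.4% in all, so that the lower GC content of the members' transcripts was not seen in their promoters.

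Of the SR proteins, which bind exonic enhancers through their RNA-recognition domains and contact other factors through their serine- and arginine-rich tails, 9 of 10 tested genes stood above control with GDNF. Srsf5 had the smallest p of the family. Its level was 199, 224 and 202 CPM in control replicates 1 to 3, 229, 251 and 264 with GDNF, 234, 197 and 223 with the antibody and 203, 215 and 218 with both. GDNF libraries lay above the controls, replicate 1 only just, and the log2 fold change was 0.25 (SE 0.081, adjusted p = 0.169). In the antibody and combined groups the libraries overlapped the controls.

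Srsf1, the founding member of the family, stood at 345, 331 and 349.9 CPM in control and 369, 418 and 362 with GDNF, and Srsf3, which also acts in mRNA export, at 257, 255 and 272 CPM in control and 297, 316 and 262 with GDNF. Srsf1 was separated from control, by 0.16 (SE 0.079) on the log2 scale, and Srsf3 was not, since GDNF replicate 3 lay among its controls. Srsf10, which turns from activator to repressor when it loses its phosphates, stood at 212, 196 and 179 CPM in control and 204, 232 and 230.4 with GDNF and overlapped. Srsf7 stood at 159, 149 and 145 CPM in control and 166, 169 and 127 with GDNF, with GDNF replicate 3 the lowest library of all and replicates 1 and 2 the highest.

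Srsf4 stood at 58.9, 63.8 and 68.7 CPM in control and 59.5, 62.0 and 86.9 with GDNF, and Srsf11 at 152, 149.9 and 145 CPM in control and 140.0, 151 and 199 with GDNF. In both, GDNF replicate 3 was the highest of the 12 libraries and the other GDNF libraries lay at or near the range of the controls. Srsf9 stood at 44.5, 47.6 and 50.6 CPM in control and 50.7, 49.3 and 55.8 with GDNF. Srsf2 stood at 215, 217 and 224 CPM in control and 223, 220.1 and 209 with GDNF, and Srsf6 at 248, 228 and 227 CPM in control and 244, 243 and 239 with GDNF, both overlapping. Their log2 fold changes with GDNF were 0.19 (SE 0.081) for Srsf10, 0.027 (SE 0.10) for Srsf7, 0.12 (SE 0.12) for Srsf4 and 0.13 (SE 0.10) for Srsf11. They were 0.13 (SE 0.093) for Srsf9, 0.048 (SE 0.066) for Srsf6, 0.16 (SE 0.074) for Srsf3 and -0.0096 (SE 0.067) for Srsf2, the SR gene with a value below 0.

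Among the hnRNP genes, 17 of 20 stood above control with GDNF. Those separated from control were Hnrnpa1, Hnrnpc, Hnrnpdl, Hnrnph2, Hnrnpr and Hnrnpu. Hnrnph2, which binds runs of G, had the smallest p. Its level was 227, 230.4 and 235 CPM in control replicates 1 to 3, 247, 273 and 292 with GDNF, 255, 243 and 267 with the antibody and 233, 232 and 252 with both. All GDNF and antibody libraries lay above the controls, and the log2 fold change with GDNF was 0.23 (SE 0.073, adjusted p = 0.169).

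Hnrnpu, a nuclear scaffold protein that binds chromatin as well as RNA, stood at 823, 803 and 797 CPM in control and 831, 895 and 1064 with GDNF, or 0.20 (SE 0.083) on the log2 scale. Hnrnpc, which packs new transcripts by binding runs of U, stood at 235, 228 and 229 CPM in control and 241, 256 and 299 with GDNF, or 0.20 (SE 0.081) on the log2 scale. Hnrnpdl, a relative of the AU-rich binding protein of Hnrnpd, stood at 177, 175 and 171 CPM in control and 179, 198 and 247 with GDNF, or 0.26 (SE 0.10) on the log2 scale. In these 3 genes GDNF replicate 1 lay closest to the controls and replicate 3 farthest from them.

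Hnrnpl, which binds CA repeats, was the hnRNP gene below control with the smallest p. It stood at 312, 329 and 313 CPM in control and 324, 299 and 235 with GDNF, where replicate 1 lay among the controls and replicate 3 was the lowest of all 12 libraries. Its log2 fold change was -0.15 (SE 0.091, adjusted p = 0.334), and -0.039 without GDNF replicate 3. Hnrnpm, which binds GU-rich sequence, had its distance from control in 1 library: it stood at 404 CPM in GDNF replicate 3 and between 240.5 and 259 in all others. Hnrnpa0 stood at 105 CPM there and 150.4 to 171 elsewhere.

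Of the snRNP genes, 8 of 11 stood above control with GDNF. Snrpd1 has been given above. Snrpb2, a protein of the U2 particle, stood at 99.1, 97.0 and 109.8 CPM in control replicates 1 to 3, 113, 132 and 129.8 with GDNF, 111, 102 and 126 with the antibody and 94.2, 106 and 118 with both. Its GDNF libraries lay above the controls, replicate 1 by a small margin, with a log2 fold change of 0.29 (SE 0.099, adjusted p = 0.169). Snrpa1, its partner in the U2 particle, overlapped at 21.4, 25.6 and 23.2 CPM in control and 20.6, 25.3 and 29.3 with GDNF.

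The Sm ring proteins did not all lie on the same side of control. Snrpe stood at 69.4, 64.3 and 67.4 CPM in control and 76.7, 79.0 and 76.0 with GDNF, which did not overlap, at a log2 fold change of 0.20 (SE 0.077). Snrpd3 stood at 96.0, 98.0 and 99.2 CPM in control and 95.3, 122 and 120.0 with GDNF, Snrpf at 65.1, 66.9 and 68.8 CPM in control and 64.7, 68.5 and 92.5 with GDNF, and Snrpg at 40.7, 40.5 and 43.1 CPM in control and 46.5, 55.6 and 39.8 with GDNF, and these 3 overlapped with control. Snrpd2 stood at 79.3, 86.9 and 83.2 CPM in control and 76.9, 88.5 and 59.9 with GDNF, with replicate 3 lowest. Snrpb, which codes for SmB, stood at 81.3, 85.3 and 93.3 CPM in control replicates 1 to 3, 83.0, 71.2 and 36.6 with GDNF, 75.2, 83.6 and 79.7 with the antibody and 89.8, 93.9 and 83.2 with both. GDNF replicate 3 held less than any other library, and replicate 1 lay among the controls. Its log2 fold change was -0.45 (SE 0.18, adjusted p = 0.203) and stood at -0.18 without GDNF replicate 3, while Snrpn, its close relative in neurons, had no counts.

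The U1 proteins Snrpa and Snrpc stood close to control. Snrpa had 59.2, 60.9 and 62.7 CPM in control and 62.4, 58.4 and 63.8 with GDNF, and Snrpc had 51.4, 50.3 and 52.8 CPM in control and 50.5, 56.2 and 39.5 with GDNF. Their log2 fold changes were 0.014 (SE 0.076) and -0.084 (SE 0.11), and both overlapped with control.

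LSm proteins form a nuclear ring on U6 RNA, of which Lsm8 is specific, and a cytoplasmic ring for mRNA decay, of which Lsm1 is specific. With GDNF 6 of 8 stood above control. Lsm8 stood at 55.5, 63.8 and 64.5 CPM in control and 65.4, 73.9 and 69.3 with GDNF, and Lsm1 at 20.4, 17.5 and 24.0 CPM in control and 23.6, 24.0 and 18.7 with GDNF. Lsm8 was separated from control and Lsm1 was not, at log2 fold changes of 0.18 (SE 0.091) and 0.091 (SE 0.14). Lsm5 and Lsm6, which both rings share, were separated as well, with Lsm5 at 34.8, 33.8 and 34.2 CPM in control and 35.8, 50.8 and 37.4 with GDNF and Lsm6 at 35.8, 31.9 and 33.7 CPM in control and 38.2, 39.8 and 43.5 with GDNF. Lsm3 had the highest fold change of the family, 0.31 (SE 0.17), and its GDNF libraries stood at 21.6, 15.9 and 27.2 CPM against 16.7, 17.1 and 18.6 in control. Lsm2, Lsm4 and Lsm7 overlapped with control, at -0.12 (SE 0.11), -0.11 (SE 0.13) and 0.044 (SE 0.16) on the log2 scale.

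SF3 genes, whose products recognise the branch point with the U2 particle, stood above control in 5 of 9 cases. Sf3b1, the large subunit that clamps the branch point, stood at 350.4, 339.7 and 335 CPM in control and 353, 395 and 431 with GDNF. Sf3a3 stood at 98.0, 99.5 and 101 CPM in control and 102, 107 and 138 with GDNF. Both were separated from control with replicate 1 close to it, at log2 fold changes of 0.20 (SE 0.074) and 0.21 (SE 0.098). Sf3b5, another small subunit, stood at 25.7, 27.1 and 30.5 CPM in control and 28.1, 21.6 and 19.2 with GDNF, or -0.28 (SE 0.17, adjusted p = 0.348) on the log2 scale. Sf3b4 stood at 113, 127 and 121 CPM in control and 121, 112 and 90.3 with GDNF, or -0.16 (SE 0.098, adjusted p = 0.348). In both of them GDNF replicate 1 lay among the controls, and without GDNF replicate 3 the values were -0.17 and -0.055. Sf3a1, Sf3a2, Sf3b2 and Sf3b3 had log2 fold changes of 0.041 (SE 0.068), -0.083 (SE 0.089), 0.067 (SE 0.077) and -0.053 (SE 0.068).

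The U2AF subunits, which bind the end of the intron as a pair, lay on opposite sides of control. U2af1, which reads the terminal AG, stood at 122, 125 and 125 CPM in control and 128, 137 and 137 with GDNF, separated at 0.11 (SE 0.067) on the log2 scale. U2af2, which binds the polypyrimidine tract, stood at 175, 188 and 190.0 CPM in control and 188, 170.5 and 137 with GDNF, at -0.16 (SE 0.10, adjusted p = 0.358), with replicate 3 lowest and replicate 1 among the controls, and at -0.048 without replicate 3. Rbm25, which acts in the splicing of cell-death regulators, stood at 210.1, 224 and 205 CPM in control and 209, 222 and 307 with GDNF, again with replicate 3 apart. Tra2a and Tra2b, SR-like proteins that bind exonic enhancers, overlapped with control at 0.14 (SE 0.088) and 0.12 (SE 0.086) on the log2 scale.

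**Figure D3:**
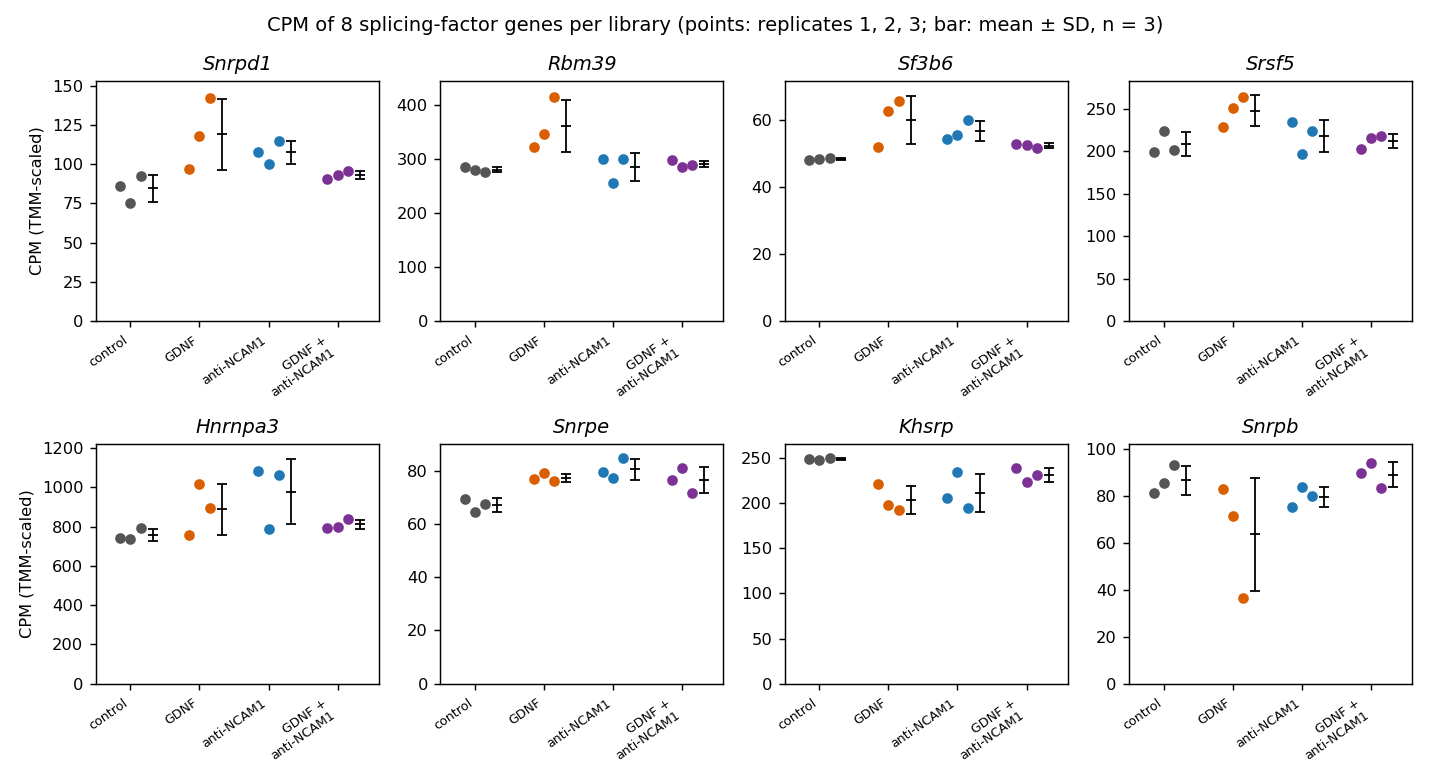
CPM (TMM-scaled, axis from 0) of 8 splicing-factor genes in each library, with replicates 1, 2 and 3 as points from left to right in each of the 4 groups and mean ± SD (n = 3) as bars. The 3 GDNF libraries lie above the 3 controls for Snrpd1, Rbm39, Sf3b6, Srsf5 and Snrpe and below them for Khsrp, and Snrpb is low in GDNF replicate 3, at 36.6 CPM.

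The second comparison asks what the antibody against NCAM1 did without added GDNF. A total of 49 of the 65 members stood above control and 16 below, with a median log2 fold change of 0.053 against 0.0045 for all tested genes. hnRNP and snRNP genes made up most of the higher members, with 18 of 20 and 9 of 11 above control and medians of 0.096 and 0.098. Of the SR genes 6 of 10 were above control, of the LSm genes 6 of 8 and of the SF3 genes 5 of 9. No member passed (0 of 65, with 0% of all tested genes passing, smallest adjusted p = 0.853 in edgeR), and DESeq2 and limma-voom passed 0 and 0 genes with 440 and 605 at an unadjusted p under 0.05.

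At an unadjusted p under 0.05, 5 members (Snrpe, Hnrnpa3, Snrpd1, Sf3b6 and Srsf3) were higher and 1, Khsrp, lower, where 2.61% of all tested genes were higher and 2.67% lower. The antibody libraries lay entirely above the controls in 15 members and below them in 3, where 9.02% and 7.85% of all tested genes did. The 3 below were Khsrp, Hnrnpl and Hnrnpul1. The mean of log2 CPM over the members, less the control mean, was 0.072, 0.016 and 0.077 in antibody replicates 1 to 3, so that replicate 2 lay within the controls. Without antibody replicate 1 the median log2 fold change of the members was 0.026, and without replicate 2 it was 0.097. Replicate 2 was also the antibody library without a falling GC slope.

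Hnrnpa3, a close relative of the silencer-binding Hnrnpa1, had the highest fold change. It stood at 739.9, 739 and 791 CPM in control replicates 1 to 3, 755, 1015 and 895 with GDNF, 1085, 788 and 1061 with the antibody and 795, 799 and 838 with both. Antibody replicates 1 and 3 were the highest of the 12 libraries, and replicate 2 lay among the controls. The log2 fold change was 0.37 (SE 0.11, adjusted p = 0.853). Hnrnpa2b1, which binds RNA carrying methylated adenosine, was likewise highest of the group in replicates 1 and 3, at 526, 546 and 541 CPM in control and 654, 528 and 658 with the antibody, or 0.19 (SE 0.092, adjusted p = 0.853) on the log2 scale.

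Snrpe, an Sm ring protein, had the smallest p. It stood at 69.4, 64.3 and 67.4 CPM in control replicates 1 to 3, 76.7, 79.0 and 76.0 with GDNF, 79.4, 77.3 and 84.8 with the antibody and 76.6, 81.2 and 71.5 with both. All 9 treated libraries lay above the controls, at a log2 fold change of 0.26 (SE 0.077, adjusted p = 0.853) with the antibody. Snrpd1 was 0.35 (SE 0.11, adjusted p = 0.853) from control and Sf3b6 0.23 (SE 0.092, adjusted p = 0.853), both with all antibody libraries above all controls. Srsf3 stood at 289, 283 and 309 CPM with the antibody against 257, 255 and 272 in control, separated at 0.17 (SE 0.074, adjusted p = 0.853). Khsrp stood at -0.23 (SE 0.078, adjusted p = 0.853) on the log2 scale, with antibody replicate 2 closest to the controls.

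The other genes below control with the antibody lay near it. Hnrnpul1, a relative of Hnrnpu, stood at 442, 427 and 457 CPM in control and 406, 425 and 424 with the antibody, a log2 fold change of -0.078 (SE 0.066), with all 3 antibody libraries below the controls. Hnrnpl was separated in the same way, at 296, 301 and 310.5 CPM with the antibody. Sf3b3, Sf3b5, Lsm4 and Srsf4 had values of -0.076 (SE 0.068), -0.19 (SE 0.17), -0.12 (SE 0.13) and -0.10 (SE 0.12), each overlapping with control.

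The third comparison sets GDNF with the antibody against GDNF alone. A total of 15 members stood higher with both and 50 lower, with a median log2 fold change of -0.10 against 0.00058 for all tested genes. The lower members included 9 of 10 SR genes, 17 of 20 hnRNP genes, 8 of 11 snRNP genes and 7 of 9 SF3 genes. Again 0 of 65 members passed, with 0% of all tested genes passing and a smallest adjusted p of 0.331 in edgeR; DESeq2 and limma-voom passed 0 and 0 genes, with 1350 and 1616 at an unadjusted p under 0.05. This comparison shares its GDNF libraries with the first, so the values for a gene in both comparisons are not independent.

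At an unadjusted p under 0.05, 4 members (Snrpb, Khsrp, Lsm4 and U2af2) were higher and 13 lower, where 6.15% of all tested genes were higher and 7.81% lower. The libraries with both lay entirely above those with GDNF in 2 members and below in 10, where 6.2% and 7.12% of all tested genes did. The 2 higher were Khsrp and Snrpb, and the 10 lower were Hnrnpdl, Hnrnpu, Lsm6, Rbm39, Sf3b1, Snrpd1, Srsf1, Srsf4, Srsf5 and Srsf6. Rbm39 had the smallest p among the lower, at -0.31 (SE 0.089, adjusted p = 0.331), with libraries of 298, 286 and 289 CPM against 323, 346 and 416 with GDNF. Snrpd1 was at -0.36 (SE 0.11, adjusted p = 0.331) and Srsf5 at -0.23 (SE 0.081, adjusted p = 0.331). Without GDNF replicate 3 these values were -0.20, -0.20 and -0.17, and the median of the members was -0.060.

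Lsm3, at -0.50 (SE 0.18, adjusted p = 0.331), had the largest size of the lower members, and its libraries with both stood at 13.3, 18.2 and 14.8 CPM and overlapped with GDNF. Hnrnpdl and Hnrnpu were at -0.28 (SE 0.10) and -0.22 (SE 0.084) on the log2 scale. Without GDNF replicate 3, Lsm3 stood at -0.29, Hnrnpdl at -0.13 and Hnrnpu at -0.11. Among the higher, Snrpb stood at 0.49 (SE 0.19, adjusted p = 0.331), and at 0.21 without GDNF replicate 3. Khsrp was at 0.18 (SE 0.078), Lsm4 at 0.29 (SE 0.13), U2af2 at 0.22 (SE 0.10), Sf3b5 at 0.36 (SE 0.17) and Sf3b4 at 0.16 (SE 0.098), and without GDNF replicate 3 U2af2 was at 0.099 and Sf3b4 at 0.046. Lsm4 stood at 57.0, 52.6 and 50.2 CPM with both and 53.9, 35.9 and 41.3 with GDNF, which overlapped.

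Against the antibody alone, the cells given both had 48 of 65 members lower, with a median of -0.043. Of all tested genes 5667 of 11332 were lower, with a median of -2.3e-05. No member passed, with 0% of all genes passing in edgeR, and 4 members had an unadjusted p under 0.05, where 2.51% of all tested genes did. Lsm4 at 0.31 (SE 0.13), Sf3b5 at 0.27 (SE 0.17) and Khsrp at 0.13 (SE 0.079) were the higher members with the smallest p, and Hnrnpa3 at -0.27 (SE 0.11), Hnrnpdl at -0.23 (SE 0.10) and Snrpd2 at -0.24 (SE 0.11) the lower. Lsm4 and these 3 lower genes were the 4 below 0.05. Against control, the cells given both had 40 members higher and 25 lower, with a median of 0.019, where 5853 of 11332 tested genes were higher, with a median of 0.0043. No member passed, again with 0% of all genes, and 1 member had an unadjusted p under 0.05, where 1.95% of all tested genes did. That member was Snrpe, at 0.19 (SE 0.077). Next to it by p were Tra2a at 0.14 (SE 0.088) and Lsm4 at 0.18 (SE 0.13) among the higher, and Khsrp at -0.10 (SE 0.078), Sf3a2 at -0.11 (SE 0.090) and Sf3b3 at -0.084 (SE 0.068) among the lower. DESeq2 passed 0 and 0 genes in these comparisons, with 173 and 114 unadjusted, and limma-voom 0 and 0, with 256 and 212.

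Whether GDNF's effect differed in the presence of the antibody was tested as an interaction, which is the log2 fold change of GDNF with the antibody less that without it. It was below 0 in 53 of 65 members, with a median of -0.16 against -0.0090 for all tested genes. No member passed, with 0% of all genes passing and a smallest adjusted p of 0.240 in edgeR, while DESeq2 and limma-voom passed 0 and 0 genes with 1650 and 1960 unadjusted. At an unadjusted p under 0.05, 4 members were above 0 and 18 below, where 7.84% and 8.93% of all tested genes were. Snrpd1 had the smallest p below 0, at -0.70 (SE 0.16, adjusted p = 0.240), followed by Hnrnpdl at -0.49 (SE 0.15, adjusted p = 0.240) and Sf3b6 at -0.43 (SE 0.13, adjusted p = 0.240). Above 0 were Khsrp at 0.42 (SE 0.11, adjusted p = 0.240), Snrpb at 0.62 (SE 0.26, adjusted p = 0.270) and Sf3b5 at 0.55 (SE 0.24, adjusted p = 0.281), and the remaining member was Lsm4. Without GDNF replicate 3 the Snrpb value was 0.34, and the Khsrp value after removal of each library's GC and length trend was 0.11. For Snrpd1 the log2 fold change of GDNF, which came with the lack of BSA, was 0.50 without the antibody and -0.21 with it.

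**Figure D4:**
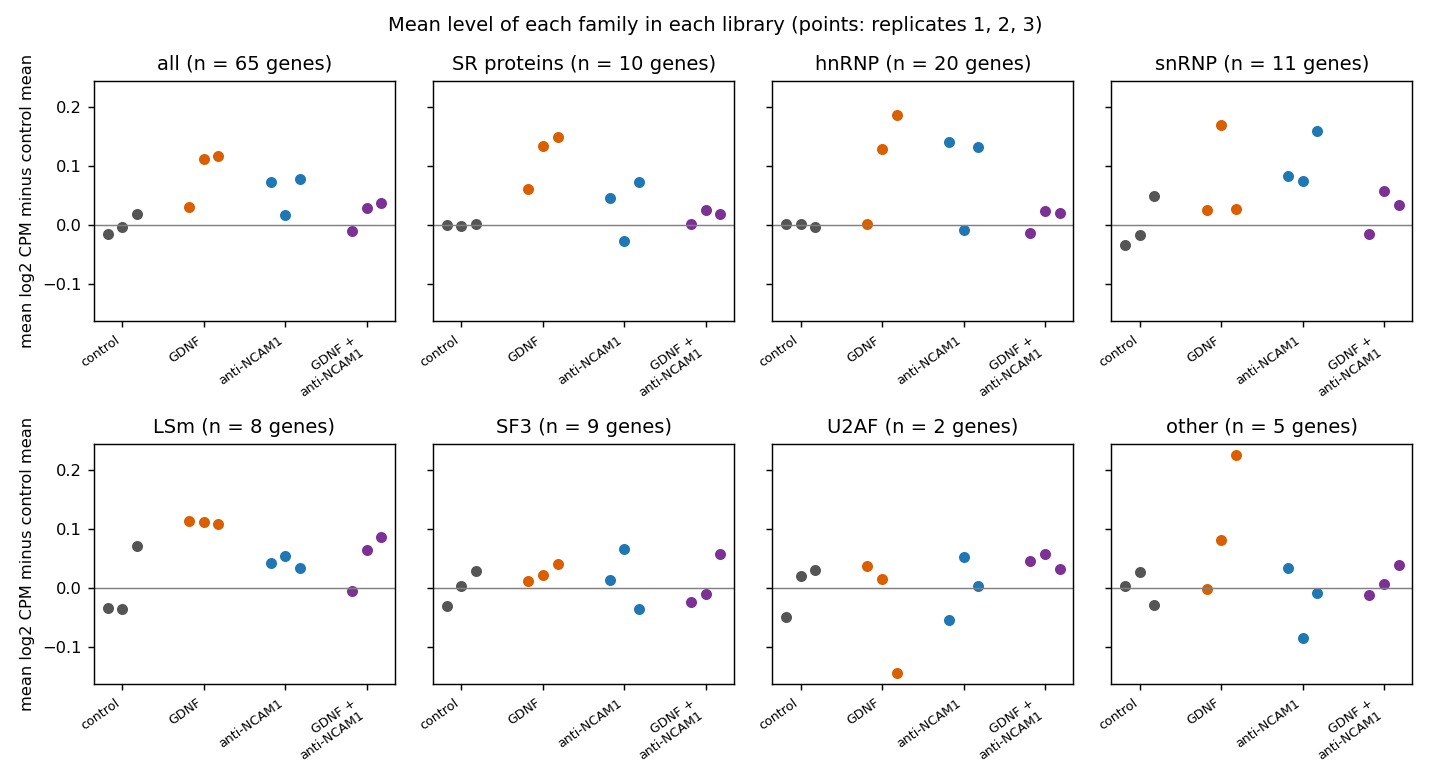
Mean over a family's tested genes of log2 CPM less the control mean, in each library, for all 65 genes and for each family (points are replicates 1, 2 and 3 from left to right in each group). The hnRNP genes stand at 0.0018, 0.13 and 0.19 in the GDNF libraries and at 0.14, -0.0092 and 0.13 in the antibody libraries, so that the replicates of a group lie apart.

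The side of control on which a member lay went with the GC content of its transcript. Over the 65 members the correlation across genes of GC content with the log2 fold change of GDNF against control was -0.63 (Spearman -0.58), and over all 11313 tested genes with a known GC content -0.55 (Spearman -0.63). All these genes share the same 6 libraries, so these are descriptions. Of the 37 members in the lowest of 3 equal GC bands of the tested genes, under 47.3% GC, 35 stood above control, with a median of 0.19; of the other 3734 genes of that band 3126 did, with a median of 0.15. In the middle band 9 of 12 members did, with a median of 0.072 against 0.0034 for the others. In the highest band, over 53.6% GC, 6 of 16 members did, with a median of -0.083 against -0.19.

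The named genes lay along this gradient. Snrpd1 (43.1% GC), Rbm39 (43.2%), Sf3b6 (44.6%), Srsf5 (43.5%) and Snrpb2 (39.3%) stood above control, and Khsrp (57.3%), Snrpb (57.7%), Sf3b4 (56.2%) and U2af2 (55.7%) below. Sf3b5, with 45.5% GC, stood below control although its GC content was in the lowest band. Srsf4, with 56.8%, stood above it, and GDNF replicate 3 was its only GDNF library above all controls. U2af1 (54.4%) and Srsf9 (56.2%) also stood above control with GC contents in the highest band, U2af1 in every GDNF library. For the antibody against control the correlation over the members was -0.47 (Spearman -0.45), and for both treatments against GDNF 0.54 (Spearman 0.52).

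When each library's trend on GC content and transcript length was removed, the median of the members in GDNF against control was 0.031 in place of 0.13, with 39 of 65 above control. By GC band, from lowest to highest, 21 of 37, 9 of 12 and 9 of 16 members then stood above control, with medians of 0.0090, 0.051 and 0.13. The members' correlation with GC content was then 0.26 (Spearman 0.27), against -0.016 (Spearman -0.040) over all tested genes. With all libraries kept, their values thus still went with GC content, in the other direction. With GDNF replicate 3 left out as well, the medians by GC band, from lowest to highest, were 0.028, 0.013 and 0.032. With the trend removed and all libraries kept, the medians of all 65 members were 0.0092 for the antibody against control and -0.042 for both against GDNF. For the interaction the median was -0.054, with 40 of 65 members below 0. In GDNF against control Snrpd1 then stood at 0.26 (SE 0.076) with GDNF, Rbm39 at 0.20 (SE 0.058), Sf3b6 at 0.13 (SE 0.069), Khsrp at -0.063 (SE 0.060) and Snrpb at -0.31 (SE 0.13), on the log2 scale, and no member passed. With GDNF replicate 3 left out as well, the values in this order were 0.18, 0.16, 0.12, -0.12 and -0.11. With all libraries kept, Srsf5 stood at 0.066, Snrpb2 at 0.059 and Hnrnph2 at 0.044 with GDNF. With the antibody Snrpe stood at 0.081, Srsf3 at 0.047, Hnrnpa2b1 at 0.071, Sf3b6 at 0.10, Snrpd1 at 0.19, Hnrnpa3 at 0.28 and Khsrp at -0.12. Without GDNF replicate 3, and with no trend removed, the median of the members was 0.050 and 44 stood above control. Without GDNF replicate 1 it was 0.19, and 27 members passed, 23 higher and 4 lower, where 2696 of 11467 genes passed, 1379 higher and 1317 lower; the GDNF group then held only the 2 replicates with a falling GC slope. The GC slopes and the treatment cannot be told apart in the GDNF group beyond these values, as the group holds 1 library without a falling slope.

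**Figure D5:**
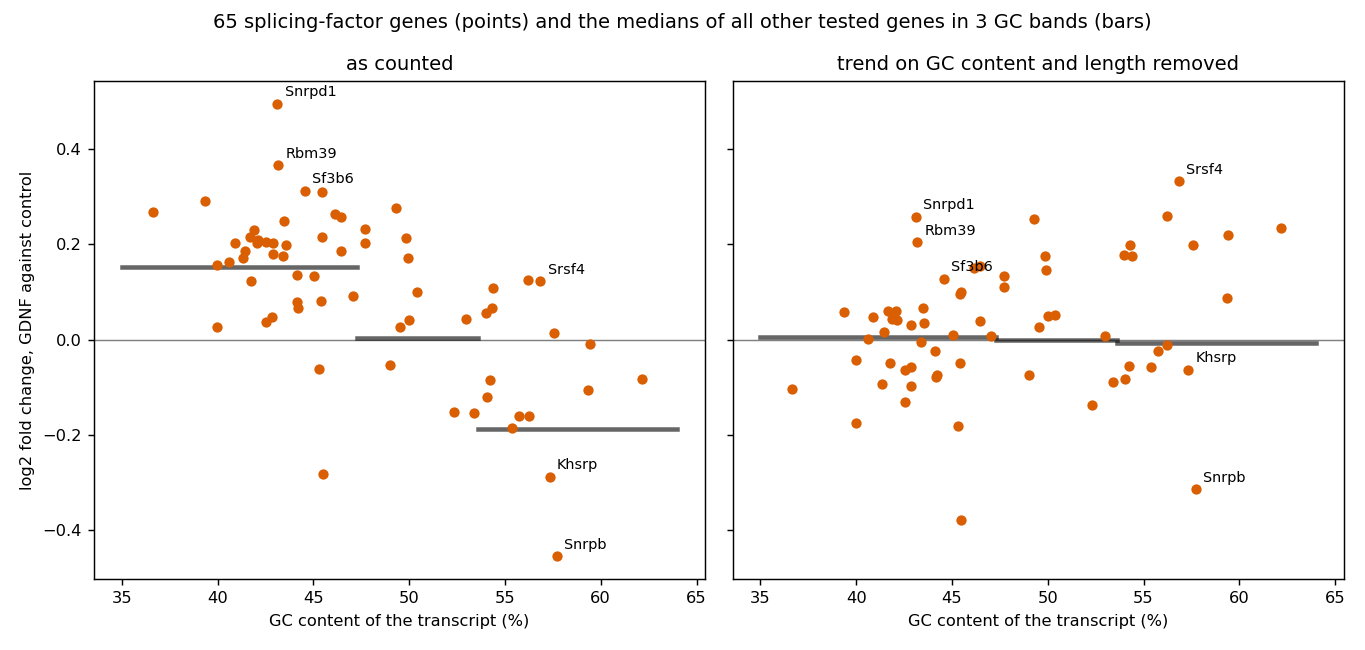
Log2 fold change of GDNF against control against the GC content of the transcript (%), for 65 splicing-factor genes (points), as counted on the left and with each library's trend on GC content and length removed on the right; bars are the medians of all other tested genes in 3 GC bands. On the left the medians of the others go from 0.15 in the lowest band to -0.19 in the highest, and on the right they lie between -0.0062 and 0.0060.

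Other genes of the splicing pathway were taken from lists by role, 135 genes of which 126 were tested. With GDNF 83 of 126 stood above control, with a median log2 fold change of 0.085, and 0 passed in edgeR; 34 stood higher and 4 lower at an unadjusted p under 0.05, where 11.6% of all tested genes stood higher and 8.7% lower, and 0% passed. With the antibody 71 of 126 stood above control (median 0.017), and with both 91 of 126 stood below GDNF alone (median -0.087). The Prp19 complex and step factors, which remodel the spliceosome for catalysis, stood above control with GDNF in 15 of 17 genes (median 0.16), led by Cdc40 at 0.38 (SE 0.10) and Crnkl1 at 0.39 (SE 0.11). The U1-specific proteins did in 5 of 6 (median 0.23), with Luc7l3 at 0.34 (SE 0.11). The kinases that phosphorylate SR proteins did in 7 of 8 (median 0.090), with Prpf4b at 0.30 (SE 0.10) and Clk1 at 0.31 (SE 0.13). Cdc40 stood at 73.1, 64.9 and 66.2 CPM in control and 76.9, 87.0 and 102 with GDNF.

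Genes of U5 and the tri-snRNP stood above control in 8 of 15 cases (median 0.038), with Prpf3 at 0.36 (SE 0.091) and Snrnp27 at 0.44 (SE 0.14) on the log2 scale. Spliceosomal helicases did in 6 of 10 (median 0.13), with Ddx46 at 0.28 (SE 0.097) and Dhx15 at 0.21 (SE 0.076). The SMN complex, which loads the Sm ring, and other snRNP assembly factors did in 8 of 14 (median 0.066). Of the other factors, Tgs1 was at 0.30 (SE 0.12) and Phax at 0.36 (SE 0.14). The minor spliceosome did in 5 of 9 (median 0.14), with Rnpc3 at 0.66 (SE 0.21) and Zcrb1 at 0.43 (SE 0.13). Other regulators of alternative splicing did in 18 of 27 (median 0.11), with Matr3 at 0.30 (SE 0.085) and Syncrip at 0.29 (SE 0.097). The exon junction complex and nonsense-mediated decay, which act after splicing, had medians of 0.0023 (6 of 10 above control) and -0.011 (5 of 10), with Rbm8a at 0.20 (SE 0.097), Magoh at 0.18 (SE 0.094), Upf3b at 0.49 (SE 0.17) and Upf2 at 0.30 (SE 0.12). None of these genes passed (edgeR adjusted p of 0.165 or more), and Rnpc3 had only 11.9, 8.73 and 9.49 CPM in control and 10.3, 15.8 and 20.9 with GDNF. Of the list genes named, GDNF replicate 3 was the highest GDNF library in all except Matr3 and Magoh. In some it stood apart: Upf3b had 27.7, 31.7 and 50.8 CPM with GDNF, and Phax 44.2, 45.4 and 69.7. Controls stood at 25.4, 28.4 and 24.9 CPM for Upf3b and 41.1, 39.6 and 43.7 for Phax. The list values are not given without that library or with the GC and length trend removed.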

How the data were processed

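RNA-seq counts of 12 libraries were used as deposited. The authors' table gives, as deposited, a whole-number count for each gene and library, with no scaling. The tools in the submitters' processing notes are kallisto 0.46.2, MultiQC and FastQC, and the builds mm10 and GRCm39. Which build the counts rest on, how shared reads were divided and whether strand was used are not given in the sources used here. Symbols were found for 52081 of 55414 IDs. The 5 processed pseudogenes that match the symbol rule were left out.

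Genes were kept with filterByExpr (minimum count 10, minimum total 15), scaled by TMM and fitted with 4 groups in edgeR 4.0.16 (R 4.3.3), using the quasi-likelihood F test, 2-sided, with Benjamini-Hochberg adjustment over all 11332 genes at 0.05. The standard error is the log2 fold change over the square root of F. CPM use TMM library sizes. GC content and length come from the principal transcripts of GENCODE M21, and promoters from RefSeq. The alternatives were DESeq2 1.42.0, limma-voom (limma 3.58.1), other size factors, no filter, compared groups alone, a replicate block, removal of the GC and length trend (lowess, span 0.3) and leaving out each library, and, chosen after seeing the data, that removal without GDNF replicate 3. Named genes are the members with the smallest p, 6 in each direction in 3 comparisons and 3 in the others, the highest and lowest of each family, all SR genes and 2 genes per list, of which 1 is not reported here. Genes named beyond this were chosen after their values were seen. The members and lists were chosen with earlier results of these data known.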

Additional observations from a re-analysis of the deposited data

How the results depend on the processing

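Of the 54 pairs of a named member and a comparison, with 1074 values under the alternatives, 1026 values kept their direction and their side of the threshold, 44 kept their direction and passed, in 28 of the pairs, and 4 changed sign. The 4 were Sf3b4 at 0.017 and U2af2 at 0.018 in GDNF against control and Sf3b4 at -0.016 in both against GDNF, each with the GC and length trend removed and GDNF replicate 3 left out, and Khsrp at -0.0094 in both against GDNF with the trend removed. The cause was not tested. DESeq2 values without an adjusted p were counted among the 1026 as not passing. These include Snrpd1, Sf3b6, Snrpb2, Snrpb and Sf3b5 in GDNF against control. In GDNF against control 2 of 65 members passed in DESeq2 (Rbm39 and Khsrp), where 31 of 11332 genes did. With no filter 5 of 66 members passed (Rbm39, Khsrp, Snrpb, Snrpd1 and Hnrnpm), where 736 of 22404 genes did. With 1 library left out 0 to 27 members passed, 27 of them without GDNF replicate 1, where 2696 of 11467 genes did. In the antibody against control 1 member passed with no filter (Hnrnpa3), where 8 of 22404 genes did. With the compared groups alone 2 passed (Hnrnpa3 at an edgeR adjusted p of 0.00800 and Snrpd1 at 0.0194), where 33 of 11332 genes did. With the trend removed and GDNF replicate 3 left out 1 passed (Hnrnpa3, edgeR adjusted p of 0.0170), where 17 of 11457 genes did. With 1 library left out 0 to 0 members passed. In both against GDNF 3 members passed with no filter (Rbm39, Snrpd1 and Snrpb), where 348 of 22404 genes did. With 1 library left out 0 to 20 passed, 20 without GDNF replicate 1, where 1986 of 11467 genes did. For the interaction 5 members passed with no filter (Snrpd1, Khsrp, Snrpb, Hnrnpdl and Hnrnpa3), where 403 of 22404 genes did. With 1 library left out 0 to 21 passed, 21 without GDNF replicate 1, where 1875 of 11467 genes did. Leaving out GDNF replicate 3 gave 1, Snrpd1 at an edgeR adjusted p of 0.0493, where 14 of 11457 genes passed.

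With no filter 22404 genes were tested in place of 11332, and every no-filter count below is out of these. Of all tested genes, those passing in GDNF against control numbered 31 in DESeq2, 736 with no filter, 2 with the trend removed and GDNF replicate 3 left out and 0 to 2696 with 1 library left out, 2696 without GDNF replicate 1. For the antibody against control they numbered 0 in DESeq2, 8 with no filter and 33 with the compared groups alone. There were 17 with the trend removed and GDNF replicate 3 left out, and 0 to 8 with 1 library left out (8 without GDNF replicate 3). For both against GDNF they numbered 348 with no filter, 1 with the trend removed and GDNF replicate 3 left out, and 0 to 1986 with 1 library left out (1986 without GDNF replicate 1). Both against the antibody gave 4 with no filter and 5 with the compared groups alone, both against control 4 and 24, and the interaction 403 with no filter, 11 with the trend removed and GDNF replicate 3 left out, and 0 to 1875 (1875 without GDNF replicate 1). To look for pairing, libraries were correlated on log2 CPM less each gene's group mean. On these deviations, same-numbered libraries had correlations of -0.147 to 0.101 over 18 pairs, 1 of them over 0.1, and 8 correlated best with their own number. GDNF replicate 1 reached 0.283 with an anti-NCAM1 library of another number. No clear pairing by number was seen, but with 3 libraries a group this check cannot exclude one. With a replicate block 0 members and 0 genes passed in each of the 6 comparisons, as without it.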

Other observations

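GDNF replicate 3 held the highest or lowest of the 12 values for 58.5% of the 65 splicing-factor genes, and for 56.2% of all tested genes. It was highest in 28 members and lowest in 10. The next library by this measure was GDNF replicate 2, with 21.5% of members against 14.7% of all genes, while GDNF replicate 1 had 3.08% and 12.7%. The farthest members in GDNF replicate 3 were Snrpb, at 36.6 CPM against a median of 83.2 in the other 11, and Lsm3, at 27.2 CPM against 16.7. Hnrnpm, Srsf4 and Rbm25 also lay above all other libraries there, and Hnrnpa0, Snrpd2, U2af2, Hnrnpl and Snrpc below them. The part of GC content, of the mitochondrial share of counts or of the treatment in these values was not tested.

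Gene counts do not show how transcripts were spliced, so nothing here bears on isoforms or protein. With 3 cultures a group, and 1 GDNF library apart from the rest, a value that did not pass does not show that groups were alike. How reads shared with pseudogene copies were divided is not given, and 1 such row, Snrpert, held 335 counts over the 12 libraries.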
